A study of Mus musculus with 3 samples.

Results

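Among cells sorted from E14.5 mouse lung on the epithelial surface protein Epcam, 52 barcodes carried the fibrillar collagen transcripts of mesenchyme with almost no Epcam transcript. They were chosen by counts of unique molecules (UMIs). A barcode needed at least 1000 UMIs, at least 500 genes, at most 10% mitochondrial UMIs, at most 2 Epcam UMIs, fewer than 10 UMIs of C1qa, C1qb and C1qc together, and at least 10 UMIs of Col1a1, Col1a2 and Col3a1 per 10000 UMIs. Of 12967 deposited barcodes, 9546 passed the filters on UMIs, genes and mitochondrial share, 1341 of these had the low Epcam and C1q counts, and 52 reached the collagen threshold. These 52 are called mesenchymal cells below. The epithelium they are set against is the 6283 filtered barcodes with at least 10 Epcam UMIs. Because the rule reads the collagens and Epcam, every contrast of expression levels between these cells and epithelium is a description and was not tested. Tests were run only on differences between sorts, within each class and between the classes.

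Embryonic lung mesenchyme surrounds the branching epithelial tree and is patterned by transcription factors such as Foxf1, Tbx4, Tbx5 and Tcf21. It sends the epithelium growth factors such as Fgf10 and Wnt2 and receives hedgehog ligand from it. It also builds the matrix of fibrillar and microfibrillar proteins, and part of it becomes the smooth muscle that wraps the airways and vessels. A sort on Epcam is meant to leave these cells behind, since mesenchyme does not normally carry that protein.

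Lungs of C57/B6 embryos from 2 females were pooled and dissociated, and the cells were stained for Epcam and for Icam1, an adhesion molecule bound by leukocytes. The labels name no genotype beyond the strain and no treatment. There were 2 libraries of Epcam+ Icam+ cells (replicates 1 and 2) and 1 library of Epcam+ cells taken without the Icam1 gate, all made with 10x Genomics 3′ chemistry. In the order Epcam+ Icam+ replicate 1, Epcam+ Icam+ replicate 2 and Epcam+, which is kept in all lists below, the libraries held 73816221, 67519731 and 84395900 UMIs of genes common to their tables, in 4739, 4531 and 3697 barcodes. Nothing in the labels tells if each library had its own pool of lungs. The p-values between sorts thus measure only library-to-library spread, largely pooled over genes, part or all of it possibly technical. The sorts also differ in the gene table and in the software version of the file headers, and neither can be told apart from the Icam1 gate. Libraries shared 3, 0 and 1 cell barcodes in pairs. No doublets were removed.

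The mesenchymal cells numbered 18, 19 and 15. They made up 0.530% (exact 95% binomial interval 0.315 to 0.837), 0.601% (0.362 to 0.937) and 0.502% (0.281 to 0.826) of the filtered barcodes, intervals that overlap and cover counting error only. A barcode share cannot tell fewer cells from cells with less RNA that missed the threshold. Depth separated the libraries more than number did. The median was 2849, 8108 and 18014 UMIs, with ranges of 1052 to 39941, 1016 to 18668 and 2995 to 50103. In the Epcam+ Icam+ libraries 9 of 18 and 8 of 19 cells had under 3000 UMIs, and in the Epcam+ library 1 of 15 did. At 10000 UMIs or more stood 5, 6 and 13 cells. Epithelial barcodes had medians of 22669, 23085 and 29076 UMIs. Asking for 10 Epcam UMIs picks deep barcodes and capping Epcam at 2 favours shallow ones, so the rule itself favours such a gap. The median mesenchymal cell showed 1248, 1952 and 4038 genes, and its mitochondrial share was 3.34%, 2.52% and 2.48%, against 2.89%, 2.85% and 2.16% in epithelium.

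**Figure D1:**
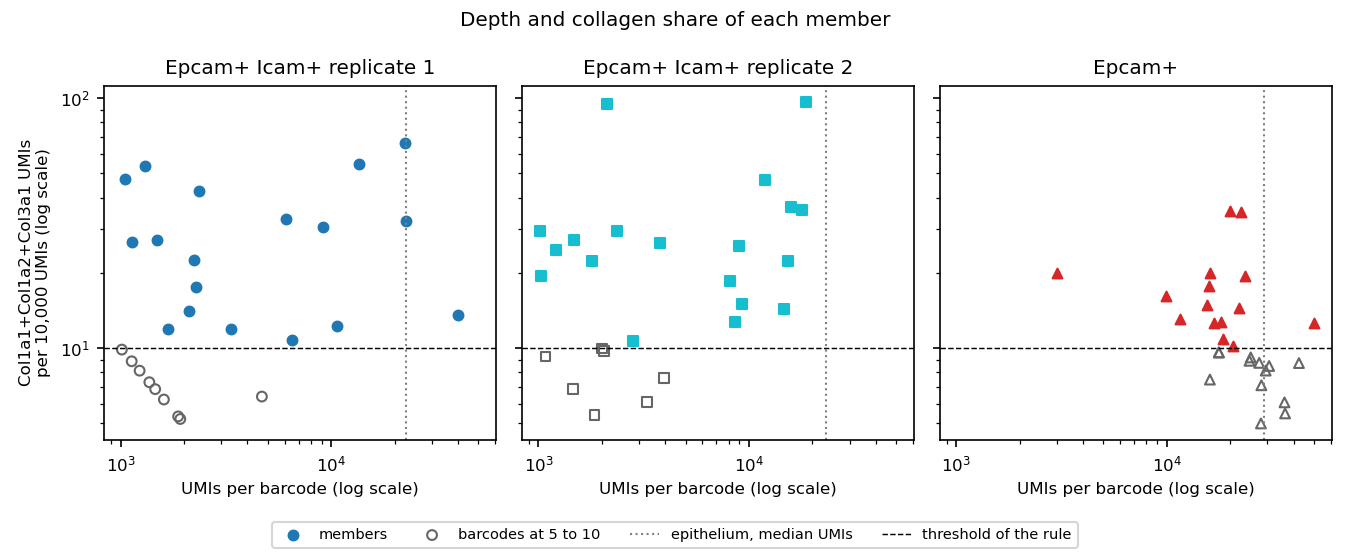
UMIs per barcode (x axis, log scale) against the collagen share (y axis, UMIs of Col1a1, Col1a2 and Col3a1 per 10000 UMIs, log scale) for the mesenchymal cells (filled) and for barcodes at 5 to 10 per 10000 (open) in each library. The dotted line is the median depth of epithelium and the dashed line the threshold of 10; the Epcam+ cells have quartiles of 15649 and 21348 UMIs, and the open points of that library have a median of 27996.

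Collagen itself chose the cells, and its values are given as description. The sums of the 3 transcripts were 465, 532 and 496 UMIs, or 31.0, 36.3 and 17.5 per 10000, and epithelium had 0.0311, 0.0256 and 0.0225 per 10000. Col1a1 and Col1a2 encode the chains of type I collagen and lie on mm10 chromosome 11 (94936224 to 94953042) and chromosome 6 (4504814 to 4541544). Col3a1, the type III chain, lies on chromosome 1 (45311538 to 45349706). Col1a1 stood at 987, 1125 and 631 CPM (UMIs per 1000000 UMIs summed over the cells of a library), Col1a2 at 867, 907 and 712, and Col3a1 at 1247, 1595 and 405. Col3a1 was thus the leading transcript of the 3 in both Epcam+ Icam+ libraries and the lowest in the Epcam+ library. The collagen sum fell just inside the threshold at 10.8, 10.7 and 10.2 per 10000 and just outside it at 9.87, 9.97 and 9.63. Between 5 and 10 per 10000 lay 9, 7 and 13 further barcodes. Those of the Epcam+ Icam+ libraries were shallow, with medians of 1458 and 2006 UMIs, while the 13 of the Epcam+ library had a median of 27996. The threshold therefore passes through the deep barcodes of the Epcam+ library and through shallow ones elsewhere. At low depth few molecules reach it: the lowest collagen count of a cell was 2, 2 and 6 UMIs, with medians of 7, 14 and 23. With at least 5 collagen UMIs required, 12, 13 and 15 cells remained. The class of the cells with the lowest counts is thus less certain, and free RNA was not removed.

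The transcripts of the sorted proteins were near 0. Epcam had 0, 1 and 7 UMIs, as the rule requires, and no cell of replicate 1 held any. Icam1, which the rule does not read, had 1, 1 and 3 UMIs in 4 of 52 cells. That is 6.67, 6.82 and 10.6 CPM, at or under the 20.0, 20.4 and 10.6 CPM that a count of 0 allows in these sums (3 UMIs). Epithelium had 195, 191 and 162 CPM of Icam1. In the mesenchymal cells of the Epcam+ Icam+ sort, Icam1 transcript was thus not detectable beyond that limit. Free RNA, which was not removed, can also give such single UMIs.

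The name was checked against markers of the other cell types that a lung sort can hold. Many of those markers had no UMI, and others were found at the levels given here. Endothelial Pecam1, Cdh5, Kdr, Tie1, Emcn and Cldn5 had 0 UMIs in all 52 cells, and the whole list of 8 had 6.67, 0 and 10.6 CPM. The mesothelial genes Upk3b, Msln, Lrrn4, Aldh1a2 and Muc16 had 0 UMIs, and the list of 8 reached 0, 0 and 35.2 CPM through Rspo1 (7 UMIs), Upk1b (2) and Wt1 (1). The glial and neuronal genes Sox10, Foxd3 and Tubb3 had 0 UMIs. Ednrb, an endothelin receptor that mesenchyme can also express, had 63 UMIs and neuronal Elavl4 had 4. This list of 7 stood at 33.3, 259 and 84.6 CPM, above the 15.9, 16.9 and 5.66 of epithelium. Of 9 chondrocyte genes 6 had a UMI, at 53.3, 34.1 and 59.9 CPM in all against 96.7, 99.3 and 175 in epithelium, with Col9a2 (18 UMIs) in front. Macrophage Pf4, Ptprc and Mrc1 were at 0, 5 of the 8 macrophage genes had a UMI, and the list stood at 6.67, 13.6 and 14.1 CPM, against 689, 650 and 139 in epithelium. Of 16 epithelial genes 14 had a UMI, among them Sftpc in 17 cells and Krt18 in 13, and they summed to 147, 225 and 641 CPM, which is 1.41%, 2.06% and 9.10% of their level in epithelium. The epithelial remainder was thus largest in the Epcam+ library, where the cells were also deepest and 7 of 15 had an Epcam UMI.

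Transcription factors of lung mesenchyme were found in all 3 libraries. The 18 genes of that list summed to 1473, 1459 and 1265 CPM, against 226, 216 and 122 in epithelium, where Foxp1 supplied most of it. A gene was counted as higher where it exceeded epithelium by a log2 of at least 2 in each of the 3 libraries (pseudocount 5 CPM) and averaged at least 50 CPM in the mesenchymal cells. By that rule 9 of the 18 factors were higher, and over all genes 115 of 2714 (4.24%) were. The median log2 difference of the list was 3.51, against -0.02 over all 21146 genes with a UMI. Tcf21, a factor of lung fibroblast progenitors (chromosome 10, 22817281 to 22820174), had 28, 35 and 49 UMIs in 8, 12 and 9 cells. It stood at 187, 239 and 173 CPM, against 0.0377, 0.0423 and 0.130 in epithelium, a log2 difference of 5.32 ± 0.25 (SD, n = 3 libraries). All 3 mesenchymal values lay above every epithelial one. Foxf1, the hedgehog-responsive forkhead factor of visceral mesenchyme (chromosome 8, 121084386 to 121088144), had 53.3, 136 and 116 CPM against at most 0.467. Tbx5 had 60.0, 81.8 and 74.0 CPM, and its partner in lung bud patterning Tbx4 had 60.0, 47.7 and 35.2, just short of the mean of 50. Hoxb5, Snai2, Hoxa5, Meox2, Tbx2 and Zeb2 made up the rest of the 9. Prrx1 was found in 6 cells of the Epcam+ Icam+ sort and in none of the Epcam+ library, and Twist1 in 1 cell. Foxp1, which epithelium also expresses, was lower in the mesenchymal cells in every library (33.3, 123 and 66.9 CPM against 183, 179 and 115).

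The 18 ligands summed to 640, 1145 and 641 CPM, against 613, 592 and 288 in epithelium, and 5 of them averaged at least 50 CPM: Wnt2, Igf1, Igf2, Slit2 and Bmp5. Wnt2 (chromosome 6, 17988940 to 18030585), a mesenchymal ligand needed for lung specification and growth, had 140, 130 and 201 CPM in 6, 7 and 8 cells. Epithelium had at most 0.286 CPM of it. Fgf10, the chemoattractant of the distal tips, had only 11 UMIs in 10 cells (26.7, 13.6 and 17.6 CPM). Wnt5a, Rspo2, Cxcl12 and Slit3 had 14, 10, 19 and 17 UMIs. Wnt2b and Grem1 had 0. The bone morphogenetic protein Bmp5 had 66.7, 95.4 and 28.2 CPM, and Bmp4 40.0, 27.3 and 81.0, near its level in epithelium. Of the 18 ligands, Wnt2 alone met the size rule. Igf1 varied widely among libraries, at 20.0, 341 and 148 CPM, since 7 cells held most of it, as described below.

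Genes that respond to hedgehog were present at low levels. The receptor and target Ptch1 had 4, 15 and 5 UMIs, the effector Gli1 had 2, 4 and 6, and the target Hhip had 0, 12 and 15. The 8 genes summed to 140, 429 and 187 CPM against 116, 115 and 72.0 in epithelium, and none met the size rule. The ligand side ran the other way: Shh, made by the distal epithelium, had 1 UMI in the 52 cells and 72.9, 71.6 and 47.7 CPM in epithelium. Wnt7b, Pdgfa and Pthlh, further epithelial ligands read by mesenchyme, had 3, 7 and 1 UMIs.

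Matrix genes outside the rule had the highest sum of the gene lists. The 25 matrix proteins summed to 5240, 7689 and 6236 CPM (epithelium 1753, 1704 and 1570), and 11 of 25 met the size rule. Matrix Gla protein Mgp (chromosome 6, 136872435 to 136875823) had 1387, 1227 and 923 CPM against 0.811, 0.973 and 1.22, a log2 difference of 7.60 ± 0.35 (SD, n = 3 libraries). Mfap4, a microfibril protein of elastic fibres (chromosome 11, 61485431 to 61488900), had 640, 1609 and 1208 CPM against at most 1.32. Bgn, Lox, Dcn, Eln, Fbn1, Nid1, Ogn, Emilin1 and Mfap2 completed the 11. Sparc, Fn1, Fstl1 and Fbn2 did not meet the rule because epithelium expressed them too: Sparc stood at 660, 968 and 1134 CPM in the mesenchymal cells and at 736, 719 and 838 in epithelium. Of 10 further collagens 7 met the rule, with Col6a1, Col6a2 and Col5a2 in front. Col6a2 was the most even at 140, 136 and 151 CPM, and Col12a1 was lower than in epithelium in each library. The enzymes that fold and trim collagen were shared between the classes. Their 12 genes summed to 2374, 2297 and 2818 CPM against 1493, 1476 and 1895, and only the procollagen C-proteinase enhancer Pcolce met the rule. The collagen chaperone Serpinh1 stood at 833, 845 and 1476 CPM against 318, 320 and 737.

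Of 12 surface and cytoskeletal markers, 5 met the rule: Pdgfra, Pdgfrb, Cdh11, Mest and Tpm2. Pdgfra, the receptor that answers epithelial Pdgfa, was even across libraries at 93.3, 68.2 and 70.5 CPM. Pdgfrb, its counterpart in perivascular cells, varied from 93.3 and 170 CPM to 31.7 in the Epcam+ library. Vim, often taken as a mesenchymal marker, separated the classes poorly, at 607, 784 and 772 CPM against 397, 385 and 382. Thy1 had 0 UMIs.

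**Figure D2:**
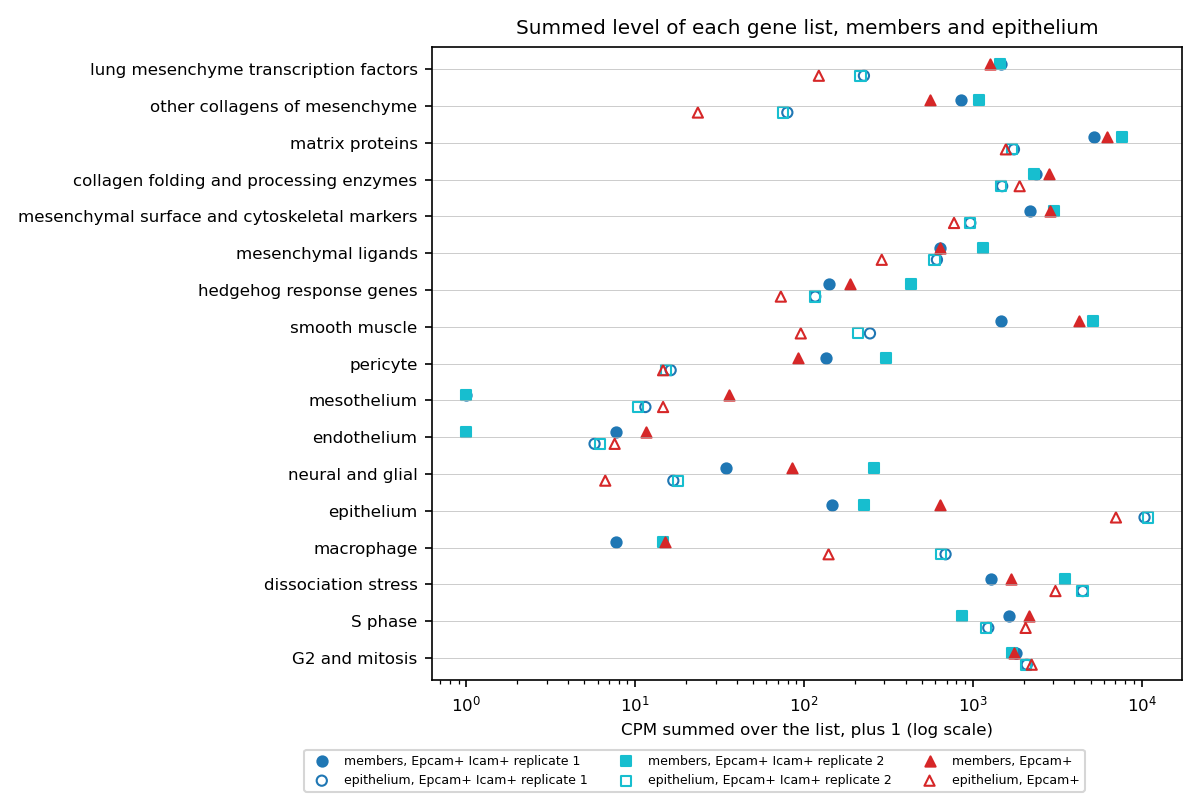
Summed CPM of each gene list plus 1 (x axis, log scale) in mesenchymal cells (filled) and epithelium (open), with one symbol per library. The factors, collagens, matrix and smooth muscle lists lie to the right of epithelium in each library, for example 1473, 1459 and 1265 CPM against 226, 216 and 122 for the factors, and the epithelial list lies to the left.

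The genes farthest above epithelium in their weakest library were Mgp, Mfap4, Acta2, Mylk, Ppp1r14a, Adh1, Nexn, Tcf21, Sparcl1, Col6a2, Wnt2, Col6a1, Iigp1, Bgn, Nkain4, Gucy1a1, Actg2, Tshz2, Snai2 and Col5a2. Of these 20, Acta2, Mylk, Ppp1r14a, Nexn and Actg2 belong to the contractile apparatus, and Gucy1a1 is a subunit of the nitric oxide receptor of smooth muscle and perivascular cells. Ppp1r14a, an inhibitor of myosin phosphatase, had 320, 327 and 254 CPM against at most 1.93, and Nexn, an actin-binding protein, 367, 409 and 564 against at most 6.51. Adh1, an alcohol dehydrogenase that oxidises retinol, had 267, 184 and 201 CPM, and Sparcl1, a matricellular protein, 160, 354 and 331. Iigp1, an interferon-inducible GTPase, stood at 200.0, 354 and 123 CPM against at most 0.189 in epithelium. The groups of libraries did not overlap for any of the 20, which the choice of genes by size fixes.

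The genes farthest below were Crb3, Tspan8, Cldn3, Krt18, Igfbp2, Anxa1, Cadm1, Tmem238, Sftpc and Pcbd1, and 105 of 2600 genes (4.04%) were lower by a log2 of at least 2 in each library with a mean of at least 50 CPM in epithelium. Crb3, an apical polarity protein, Tspan8, Anxa1 and Tmem238 had 0 UMIs in all 52 cells. The keratin Krt18 had 26.7, 34.1 and 28.2 CPM against 1108, 1088 and 700.1. Surfactant protein Sftpc, the most abundant epithelial transcript of the list, had 20.0, 13.6 and 134 CPM against 5566, 6090 and 2461. Its mesenchymal level was thus highest in the library with the lowest epithelial level. Of the 16 epithelial genes, 10 met the rule for lower genes, and Id2, which mesenchyme also expresses, did not (60.0, 88.6 and 240 CPM against 205, 204 and 542).

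**Figure D3:**
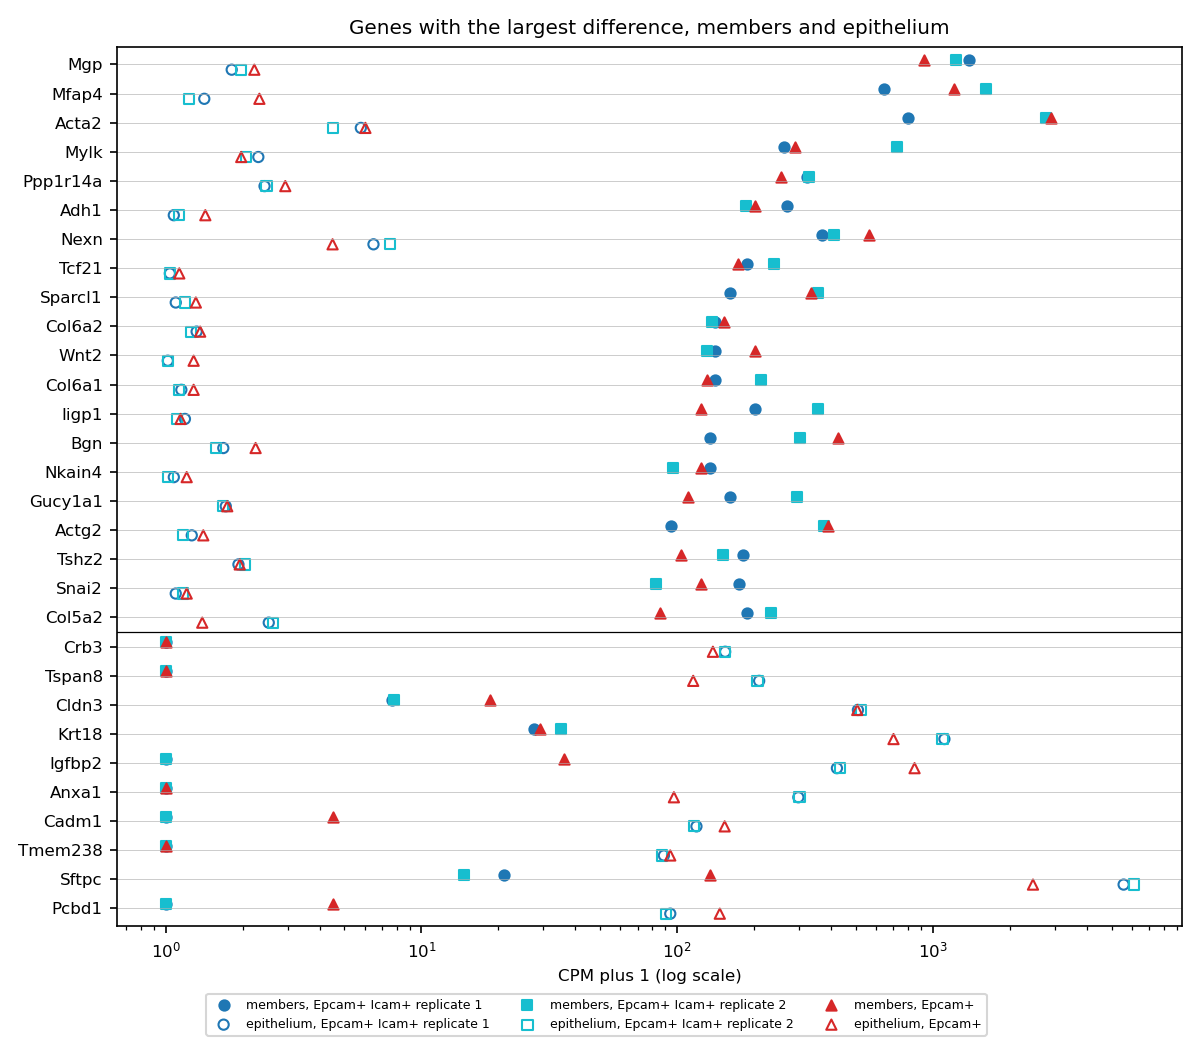
CPM plus 1 (x axis, log scale) of the 20 genes farthest above and, under the line, the 10 farthest below epithelium, in mesenchymal cells (filled) and epithelium (open) of each library. Mgp stands at 1387, 1227 and 923 CPM in mesenchymal cells and near 1 in epithelium, and Krt18 at 26.7 to 34.1 CPM against 700.1 to 1108.

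Shallow cells also held factor and matrix transcripts. In the 17 cells of the Epcam+ Icam+ sort under 3000 UMIs the factors summed to 1053 CPM, with a UMI in 12 cells, and the matrix proteins to 5673 CPM in 15 cells. In the 20 deeper cells of that sort they summed to 1512 and 6537 CPM. Of epithelial barcodes thinned to 1000 UMIs, 1680 of 2056, 1444 of 1824 and 1886 of 2403 also had a matrix UMI. Detection of a matrix UMI thus separates the classes little at such depth. A factor UMI was found in 359, 336 and 302 of those thinned barcodes. Other lists differed more between shallow and deeper cells, with S phase at 849 and 1298 CPM and TGF-beta response genes at 306 and 827. Smooth muscle stood at 6827 and 2907 CPM. Most of its shallow UMIs lay in the cells of 2121 and 2800 UMIs, which are among the cells rich in smooth muscle genes described below. Others of that group fell among the deeper cells, so the values of this list are not read as an effect of depth. The epithelial list had 306 CPM in the shallow and 172 in the deeper cells. With 10000 UMIs required, 102 of the 115 genes higher by the size rule were shared, and 97 of the 105 lower ones. With each barcode thinned to 1000 UMIs, so that every cell weighs the same, 58 and 81 were shared.

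Within the mesenchymal cells the widest spread was in smooth muscle genes. The 9 genes (Acta2, Tagln, Myh11, Cnn1, Actg2, Des, Myocd, Mylk and Lmod1) had 1460, 5174 and 4273 CPM, against 245, 207 and 94.8 in epithelium, and 5 of 9 met the size rule. Per cell they ran from 0 to 387 UMIs per 10000, with medians of 9.17, 16.4 and 14.0. The values left a gap: 7 cells (1, 4 and 2 by library) lay between 162 and 387, and the next cell stood at 50.2. Barcodes at 5 to 10 collagen UMIs per 10000, outside the rule, fall within this gap, at 67.6, 89.2, 96.0 and 128. These 7 were set apart after their values were seen, so their contrast with the other 45 is a description. They were not the deepest cells, at 2121 UMIs in replicate 1, 2800 to 15740 in replicate 2, and 20021 and 20617 in the Epcam+ library.

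Enteric smooth muscle actin Actg2 (chromosome 6, 83512905 to 83536265) separated the 7 best, with 177 of its 179 UMIs in them, found in 7 of 7 cells and 1 of 45. Calponin Cnn1 had 47 UMIs in 7 of 7 and 4 UMIs in 3 of 45. Transgelin Tagln had 244 and 44 UMIs, and smooth muscle myosin Myh11 had 54 and 15. Acta2 was not restricted to them: it had 874 UMIs in the 7 and 470 UMIs in 39 of the other 45, or 11941 and 926 CPM. Genes outside the list followed. The growth factor Igf1 had 81 UMIs in 7 of 7 cells and 14 UMIs in 6 of 45, Hhip 22 and 5, Wnt5a 8 and 6, and the smooth muscle coactivator Myocd of the list 9 and 0. The hormone gene Crh, named here after its values were seen, had 30 UMIs in 2 of the 7 and 0 elsewhere. Foxf1 stood at 410 CPM in the 7 and 61.1 in the others. The Epcam+ cells among the 7 held 9 and 14 of its UMIs, and the cells of 2121 and 8108 UMIs held none. Of the 8 Wnt5a UMIs in the 7, the cell of 8108 UMIs held 5. Tcf21 and Wnt2 ran the opposite way. Tcf21 had 1 UMI in the 7 cells and 111 UMIs in 28 of the other 45, and Wnt2 had 0 and 97. In the sum of the 7 cells, 73192 UMIs, a count of 0 allows up to 41.0 CPM, and Wnt2 had 191 CPM in the others. Mgp and Mfap4 were found in both, at 1380 and 1082 CPM for Mgp and at 806 and 1214 for Mfap4.

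Without the 7, the smooth muscle list still stood at 1253 CPM in the other cells of the Epcam+ Icam+ sort and 1332 in those of the Epcam+ library, with Acta2 as its largest part. Their factor list was at 1469 and 1262 CPM and their matrix list at 6137 and 6065.

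Perivascular genes were concentrated in few cells too. The 7 pericyte genes had 20, 45 and 26 UMIs. In the Epcam+ Icam+ sort, 3 cells of 6505, 14602 and 8973 UMIs held 13, 21 and 14 of them, among them the hypoxia-linked Ndufa4l2 (6, 6 and 7 UMIs). The last 2 of these cells also had 10 and 9 UMIs of Pdgfrb, which was found in 16 cells in all. In the Epcam+ library 19 of the 26 UMIs were Rgs5, and Ndufa4l2, Kcnj8, Abcc9 and Higd1b were at 0.

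Cycling genes also split the cells. The 20 genes of G2 and mitosis stood at 1807, 1718 and 1744 CPM over all mesenchymal cells, an even level, and at 2089, 2062 and 2233 in epithelium. Per cell, 16 of the 52 had at least 20 UMIs of them per 10000 (6, 4 and 6 by library), 31 had under 5, and the highest value was 72.9. None of the 7 cells rich in smooth muscle genes was among the 16. In those 7 the list stood at 61.4 CPM (Epcam+ Icam+) and 246 CPM (Epcam+), against 1972 and 1994 in the others. The topoisomerase Top2a had 0 UMIs in the 7 against 193. Barcodes just under the collagen threshold did not all follow this. The Epcam+ one of 30623 UMIs, at 67.6 smooth muscle UMIs per 10000, had 17 UMIs of Actg2 and 14 of Top2a. Its G2 and mitosis genes stood at 71.8 per 10000. Those of the barcodes at 89.2, 96.0, 128, 224 and 236 stood at 6.86, 16.0, 0, 0 and 0. The 20 S phase genes varied more between libraries, at 1640, 859 and 2145 CPM, and epithelium had 1235, 1200 and 2056. No doublet caller was run and no phase was assigned.

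**Figure D4:**
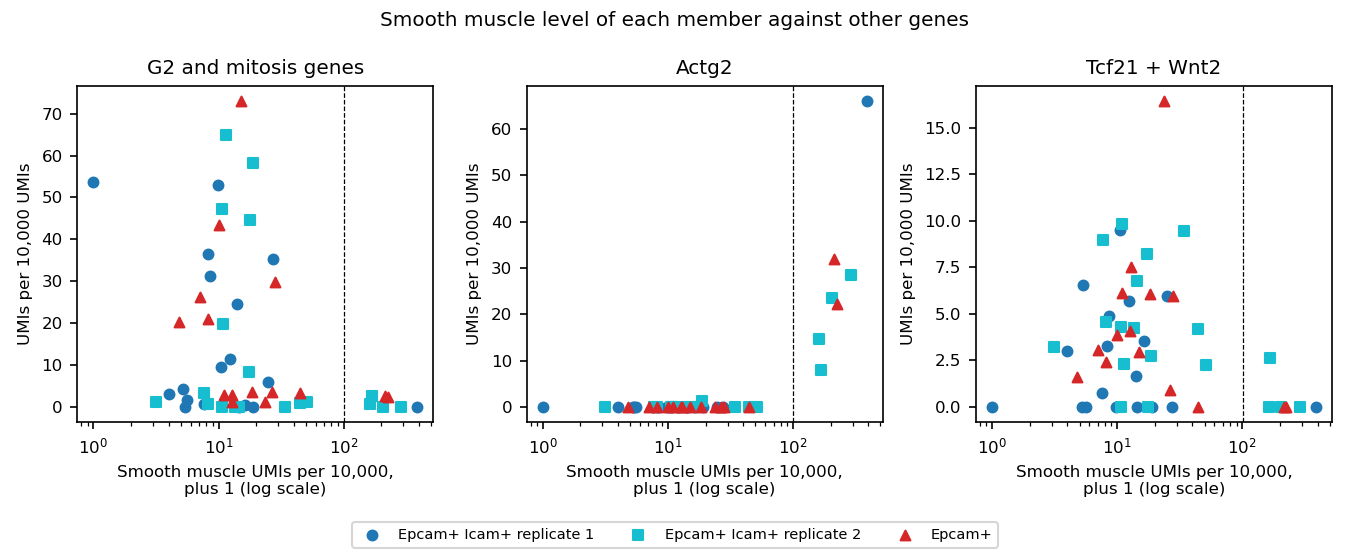
Smooth muscle UMIs per 10000 plus 1 (x axis, log scale) of each of the 52 mesenchymal cells against G2 and mitosis genes (left), Actg2 (middle) and the sum of Tcf21 and Wnt2 (right), each in UMIs per 10000. The dashed line marks 100: the 7 cells to its right, at 162 to 387, hold 177 of 179 Actg2 UMIs, 1 of 112 Tcf21 UMIs and no Wnt2, and none exceeds 20 in the left panel.

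The comparison between sorts asks whether mesenchymal cells that passed the Icam1 gate differ from those taken with Epcam alone. UMIs were summed over the mesenchymal cells of each library (149989, 146704 and 283853) and tested with edgeR's quasi-likelihood F test and Benjamini-Hochberg adjustment at 0.05. The design has 2 libraries against 1 and 1 residual degree of freedom, and the lone Epcam+ library is assumed to vary like the others. The test therefore leans on spread pooled over genes more than on the spread of each gene. Each SE is the absolute log2 fold change divided by the square root of F. Of 3005 genes tested, 183 were higher after the Icam1 gate (6.09%) and 92 lower (3.06%), or 9.15% in either direction. In epithelium the same libraries gave 6080 higher (39.6%) and 6026 lower (39.2%) of 15363, or 78.8%. The mesenchymal counts depend strongly on the tool and the cells: DESeq2 called 24 higher and 9 lower, all among those of edgeR. With only the cells of 10000 UMIs or more, a set closer in depth, edgeR called 96 higher and 48 lower of 2311, of which 96 and 43 were shared.

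Several of the largest differences were in broadly expressed transcripts, given here with epithelium of the same libraries. Atp6v0c, a proton pump subunit, had 25, 38 and 0 UMIs. Against the 10.6 CPM that 0 allows there (3 UMIs), it was at least 15.8-fold and at least 24.5-fold higher. In epithelium it stood at 317, 308 and 0.727 CPM. Adnp (22, 11 and 0 UMIs) and Mrpl53 (18, 14 and 0) were at 0 in the Epcam+ cells too, with 84.0, 81.4 and 1.90 and with 131, 131 and 1.16 CPM in epithelium. Lars2 had 136, 123 and 2 UMIs, and AY036118 363, 445 and 8, found in all 37 cells of the first sort and in 2 and 8 of 15 in the other. In epithelium Lars2 stood at 446, 440 and 10.6 CPM and AY036118 at 1008, 1007 and 41.7. Of 22 histone genes named Hist that were tested, 15 were higher and 1 was lower, beside 6.09% and 3.06% of all genes tested. Hist1h2bj led them with 37, 7 and 0 UMIs, 19 of the 37 in 1 cell, and had 59.9, 63.1 and 8.16 CPM in epithelium. Usp50 (0, 1 and 33 UMIs) and Wdr89 (4, 3 and 51) were lower, by log2 differences of -4.76 and -2.79, and in epithelium these were -4.35 and -3.27. In these transcripts the Icam1 gate cannot be told apart from the gene table and software version.

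Of 25 matrix proteins 19 were tested, 5 were higher (Nid1, Ogn, Vcan, Lox and Fbn2) and 1 was lower (Lum), where 6.09% and 3.06% of all genes tested were. Their median log2 fold change was 0.61, against 0.04 over all 3005 genes. Of 10 further collagens 7 were tested and 3 were higher, Col5a1, Col5a2 and Col14a1, with a median of 1.41. Of 13 alternatives, Col5a1 lost its call under 9, Col14a1 and Fbn2 under 8 each, and Col5a2 under 6. A gene passes the filter through whichever library holds it, and the rule itself reads collagen, of which the Epcam+ cells had less per UMI, so the shares are read as description. The basement membrane linker Nid1 had 167, 150 and 24.7 CPM, which is 2.76 on the log2 scale (SE 0.585, edgeR adjusted p = 0.000148, higher in 2 of 2 libraries). Osteoglycin Ogn had 147, 164 and 35.2 CPM (2.22, SE 0.549, edgeR adjusted p = 0.00174). Versican Vcan had 153, 266 and 66.9 CPM, and the crosslinking enzyme lysyl oxidase Lox 187, 259 and 77.5. For all of these both Epcam+ Icam+ libraries lay above the Epcam+ library. Col3a1, a gene of the rule, is among the 183, and nothing is read from its call.

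Lumican, Lum, a small proteoglycan of collagen fibrils (chromosome 10, 97565128 to 97572703), was the 1 matrix gene called in the opposite direction. It had 4, 1 and 50 UMIs in 3, 1 and 7 cells, or 26.7, 6.82 and 176 CPM. The log2 difference was -3.23 (SE 0.613, edgeR adjusted p = 1.21e-05), and the 50 UMIs were spread over several cells, with at most 18 in 1. Pcolce was lower too, at 93.3, 81.8 and 261 CPM. The receptor Pdgfrb, the cadherin Cdh11, the insulin-like growth factor Igf2, its clearing receptor Igf2r and the guidance cue Slit2 were higher. Of 13 alternatives, Cdh11 lost its call under 10, Pdgfrb under 7, Slit2 under 6, and Igf2 and Igf2r under 3 each. For Pdgfrb, cells of 14602 and 8973 UMIs held 10 and 9 UMIs in replicate 2. A cell of 9161 UMIs held 7 in replicate 1. Igf2 had 113, 191 and 17.6 CPM, or 3.17 on the log2 scale (SE 0.631, edgeR adjusted p = 3.91e-05), and its fold change in epithelium was 4.51 (SE 0.0476). Of 10 imprinted growth genes 3 were higher (Igf2, Igf2r and Peg3) and Dlk1 was lower, beside 6.09% and 3.06% of all genes. Peg3 lost its call under 12 of 14 alternatives and Dlk1 under 10 of 14. Ndufa4l2 was called higher from 10, 14 and 0 UMIs in 3 and 3 cells. The call was lost under 6 of 10 alternatives.

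Of the 10 transcription factors tested, Zeb2 alone passed between sorts (log2 1.31, SE 0.432, edgeR adjusted p = 0.0346), beside 9.15% of all genes tested. Its log2 difference in epithelium was 3.85, and its call was lost under 7 of 13 alternatives. Tcf21 stood at 0.41 (SE 0.415, edgeR adjusted p = 0.606) and Foxf1 at -0.19 (SE 0.481, edgeR adjusted p = 0.847), with errors too wide to show equal levels. None of the 6 smooth muscle genes tested passed, none of the 3 hedgehog genes and none of the 13 genes of G2 and mitosis. At a share of 9.15% over all genes, lists this short can show none. Of 15 S phase genes tested, 4 were lower after the Icam1 gate, Mcm3, Mcm6, Gins2 and Tyms, with a list median of -0.87, beside 3.06% of all genes lower. Gins2 lost its call under 9 of 12 alternatives and Tyms under 9 of 13. In epithelium 18 of 20 were lower, with a median of -0.99, beside 39.2% of all genes tested there.

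Several genes lower after the Icam1 gate are epithelial. Sftpc had 3, 2 and 38 UMIs in 3, 2 and 12 cells (log2 -2.84, SE 0.675, edgeR adjusted p = 0.00106), while in epithelium it was higher after the gate by 1.05 (SE 0.0534). Cd24a, an epithelial surface glycoprotein, had 2, 5 and 41 UMIs, and Id2 9, 13 and 68. The epithelial list moved with them, at 147, 225 and 641 CPM, as did depth. Their part in these differences was not tested. The matricellular gene Ccn1 had 5, 6 and 72 UMIs in 2, 4 and 13 cells, and Angptl4 1, 2 and 35. The dissociation response gene Egr1 had 0, 50 and 8 UMIs, 32 of the 50 in 1 cell, and replicate 1 had none, so its call rests on replicate 2. Tgfbi had 6, 41 and 110 UMIs, of which 1 cell held 39 of the 41 and another 42 of the 110.

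The calls on these lists are fragile. Outside the rule, 30 list genes passed in either direction. At 10000 UMIs or more 17 of 29 tested passed again, among them Nid1, Ogn, Vcan, Lox, Lum, Igf2, Igf2r and Slit2. In DESeq2 none of the 24 with an adjusted p passed, and the lowest was 0.0639 (Igf2r).

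**Figure D5:**
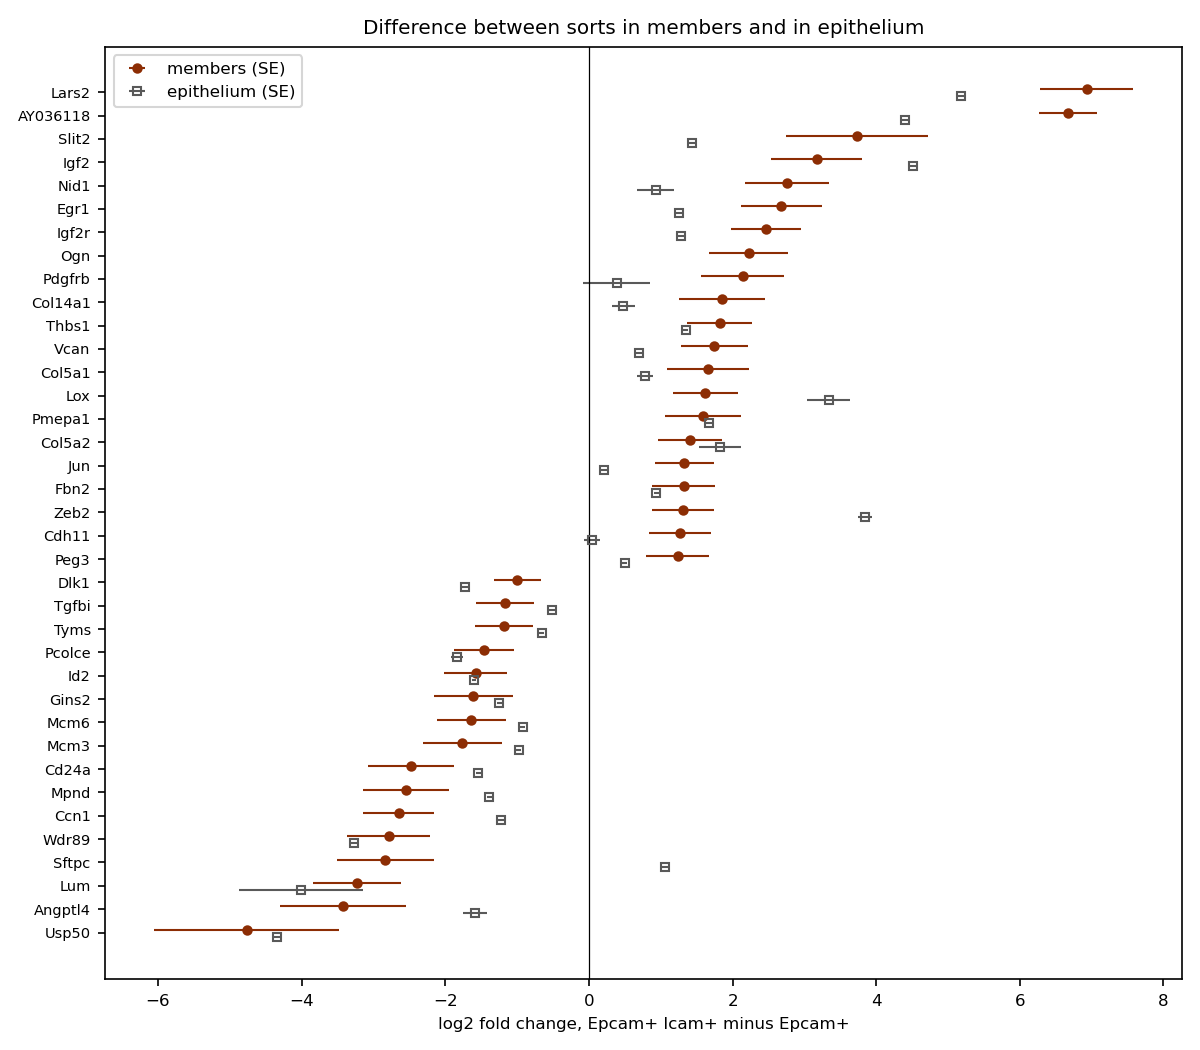
The log2 fold change between sorts (x axis, Epcam+ Icam+ minus Epcam+) with its SE in mesenchymal cells (filled) and in epithelium (open), for the 37 named or listed genes past the threshold in mesenchymal cells that have a UMI in each sort. Nid1 lies at 2.76 in mesenchymal cells and 0.93 in epithelium, Lum at -3.23 and -4.01, and Sftpc at -2.84 and 1.05; both classes come from the same libraries, and Ogn was not tested in epithelium.

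Whether the difference between sorts is another one in mesenchymal cells than in epithelium was tested directly, with the library as a block. Over 14397 genes none passed in either direction (0.0%), 276 had an unadjusted p under 0.05, and DESeq2 called 2 higher and 7 lower. A check on simulated counts showed that this fit has little power, so its 0 carries no weight. Limited to the 3005 genes tested in mesenchymal cells, a choice made after that result was seen, 5 were higher (0.166%) and 8 lower (0.266%), together 0.433%. Sftpc differed most in the lower direction, by -4.18 (SE 0.473). In the fit over 14397 genes its estimate was close, at -4.34 (SE 0.483), and it did not pass. The calls thus depend strongly on the set of genes fitted. Igf1, Pmp22, Gsn, Zeb2, Vamp8, Apoe and Cyba were the others. Of these Zeb2, Apoe and Cyba are also macrophage genes, and the macrophage list in the epithelial sums stood at 689, 650 and 139 CPM. Its part was not tested. The 5 higher include Col3a1, from whose call nothing is read since it chose the cells, and the transcripts Gm42418, AY036118 and Gm26917. The remaining one was Mfap4, by 1.82 (SE 0.417), where the fit over 14397 genes gave 1.66 (SE 0.847). Mfap4 did not differ between sorts beyond its error in mesenchymal cells (log2 0.01, SE 0.303). It was lower after the gate in epithelium (-2.20, SE 0.322), where it had 0.415, 0.233 and 1.32 CPM.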

How the data were processed

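Cells of 3 libraries were profiled with 10x Genomics 3′ v3 chemistry. The deposited matrices hold UMI counts per gene and barcode made with Cell Ranger, version 5.0.1 for both Epcam+ Icam+ libraries and 3.0.2 for the Epcam+ library per the file headers, while the submitters' processing notes name version 2.1.1 and mm10. Genes were joined on the 30406 shared Ensembl IDs. The mesenchymal cells, gene lists and tests were chosen with earlier results of these data known. Counts were summed per library and class. Sorts were compared with edgeR 4.0.16 (TMM, filterByExpr, quasi-likelihood F test, R 4.3.3), on 1 residual degree of freedom, after a check on simulated counts. The interaction fit held both classes of each library with library as a block. DESeq2 1.42.0 was an alternative. Named genes were the 20 farthest above and 10 farthest below epithelium in their weakest library by the size rule, and between sorts up to 8 called genes each way with the largest differences, a mean of at least 20 CPM and 1 direction in both replicates. Other list members are named by role. Doublets and free RNA were not removed. Intervals cover counting error only.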

Additional observations from a re-analysis of the deposited data

How the results depend on the processing

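The number of mesenchymal cells followed the threshold, with 81 cells at 5 collagen UMIs per 10000 and 27 at 20. With at least 5 collagen UMIs in the cell it was 40. It was 34 with at least 3000 UMIs and 24 with at least 10000, where the median depth was 22450 and 15511 UMIs in Epcam+ Icam+ replicates 1 and 2. With each barcode thinned to 1000 UMIs, 92 genes were higher than in epithelium, 58 of them shared with the 115. Lower genes then numbered 180, of which 81 were shared with the 105. Leaving out 1 library gave 119 to 146 higher and 112 to 154 lower genes.

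Between sorts the mesenchymal calls, 183 higher and 92 lower, fell to 107 and 55 at the threshold of 20, 110 and 52 from 3000 UMIs, 96 and 48 from 10000 UMIs, 37 and 13 with 0 Epcam UMIs, and 35 and 6 with 0 C1q UMIs. They were 24 and 9 with DESeq2, 17 and 12 after thinning, and 116 higher with at most 5% mitochondrial UMIs. With any counted gene kept, edgeR called 0 and 0 of 11930, with 815 at an unadjusted p under 0.05. Tgfbi reversed to 0.79 with 0 C1q UMIs (edgeR adjusted p = 0.614). The cause was not tested. Thinned epithelium gave 2767 higher and 2705 lower.

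The difference between classes, 0 and 0 calls, became 20 and 13 at the threshold of 20, 2 and 7 with 0 Epcam UMIs, 1 and 7 from 10000 UMIs, 5 and 9 without the 7 cells rich in smooth muscle genes, 2 and 7 with DESeq2, and 5 and 8 over the genes tested in mesenchymal cells. The choices from 10000 UMIs, without the 7 cells, over all gene IDs and over the genes tested in mesenchymal cells were made after seeing the data. Leaving out a library from a comparison of sorts leaves no residual degree of freedom, so it gives fold changes only. No paired analysis was possible because the Epcam+ library carries no replicate number, and the groups share fewer than 2 numbers. Depth limits most single genes to a few UMIs a library.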

Other observations

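Barcodes just under the collagen threshold held related gene groups. The 13 of the Epcam+ library at 5 to 10 collagen UMIs per 10000 had 1139 CPM of the lung mesenchyme factors and 4045 CPM of matrix proteins. The 16 of both Epcam+ Icam+ libraries had 876 and 4161 CPM, and their smooth muscle genes stood at 5569 CPM, against 2464 in the 13.

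Mesothelial genes had 10 UMIs in the 52 mesenchymal cells and 120 UMIs in 4 of those 13 barcodes. Of the 120, 1 barcode of 25044 UMIs held 117: 50 of uroplakin Upk3b, 32 of the retinoic acid enzyme Aldh1a2, 14 of Rspo1, 11 of the transcription factor Wt1 and 10 of Upk1b. It also had 12 UMIs of the keratin Krt19, 9 of Foxf1 and 23 of the 3 collagens, and 0 of Tcf21 and Pdgfra. It is a single barcode, chosen after its values were seen.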
